A study of Homo sapiens with 6 samples.

Results

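The genes of cholesterol and fatty acid synthesis were examined in U251, an established human glioblastoma cell line, with or without a stable lentiviral PD-L1 construct. The list holds 32 genes named for their known roles, and it was drawn up with earlier results of these data known. It comprises 18 enzymes of sterol synthesis and 7 of fatty acid synthesis, elongation and desaturation. The others are 5 genes of the SREBP pathway and sterol transport inside the cell, and 2 sterol exporters. Of the 32 genes, 31 had an Ensembl identifier in the table of 57773 genes. All 31 passed the low-count filter that left 15818 genes for testing. ACACA, the acetyl-CoA carboxylase of fatty acid synthesis, was not matched to an identifier and is not analysed here.

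The tested cells were U251/PD-L1, which carried the PD-L1 (CD274) construct, and the controls were U251/Vec, which carried the vector, here called Vector. Both were lentivirally transduced stable lines at passage 5 to 10, grown in DMEM with 10% fetal bovine serum. Poly-A RNA was sequenced from 3 separate 100-mm dishes of each, taken 12 h after passaging. PD-L1 is a membrane protein that restrains T cells by binding their receptor PD-1. All dishes of a group came from the same transduced line. The p-values therefore set the difference between the lines against the variation between dishes and cannot speak for another transduction. The labels do not name the promoter of the construct or say whether a line was 1 clone.

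Cells make cholesterol from acetyl-CoA through mevalonate, isoprenoid units, squalene and lanosterol, and they make palmitate and its longer or desaturated products from the same acetyl-CoA. Both routes are driven by the SREBP transcription factors, whose precursors are held in the endoplasmic reticulum by SCAP and INSIG proteins while sterols are plentiful, and are carried to the Golgi and cleaved when sterols run low. The SREBF2 product mainly drives sterol genes and the SREBF1 product mainly fatty acid genes, in promoters where an SREBP site often lies near a CCAAT box bound by the factor NF-Y. Excess cholesterol is converted to oxysterols, which activate the LXR receptors, and these raise the exporters ABCA1 and ABCG1 and also SREBF1. Glioblastoma cells are known for high SREBP-1 activity and for a strong dependence on cholesterol.

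The promoters of the genes were searched for a CCAAT box and a motif like an SREBP site, the 2 elements named above for the synthesis genes. The exporters were included although they are described above as raised by LXR. RefSeq windows of GRCh38.p14, reaching from 250 bases before a start to 50 after it, were present for 27 of the 32 genes in 36 windows. CCAAT, read on both strands, occurred for 13 of 15 sterol enzymes (86.7%), 4 of 6 fatty acid enzymes (66.7%), 3 of 5 genes of the SREBP group and 0 of 1 exporter. It occurred for 39.7% of the 27305 genes with a window. PMVK, CYP51A1, ELOVL6, FADS1, SREBF1, SCAP and ABCA1 had no match. TCACNCCAC, a sterol response element-like motif read on both strands, occurred for 1.39% of all genes and, among the members, for SREBF2 alone. The SREBF2 window is shown for both motifs, which lay 133 to 125 and 106 to 102 bases before the start and did not overlap. STARD4, HSD17B7 and SC5D are shown as the 3 members with a window that had the highest log2 fold changes, and HMGCS1 and INSIG1 as an early enzyme and the protein that retains SREBPs. Capitals mark the motif, or ATTGG where CCAAT lies on the other strand, in sequences written along the strand of the gene.
SREBF2 (chr22:41832952-41833000, plus strand, TCACNCCAC): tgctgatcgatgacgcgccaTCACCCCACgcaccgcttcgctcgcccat
SREBF2 (chr22:41832979-41833023, plus strand, CCAAT): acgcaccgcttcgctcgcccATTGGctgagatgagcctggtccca
STARD4 (chr5:111512672-111512716, minus strand, CCAAT): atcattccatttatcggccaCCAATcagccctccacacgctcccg
HSD17B7 (chr1:162790630-162790674, plus strand, CCAAT): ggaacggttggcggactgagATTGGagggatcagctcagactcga
SC5D (chr11:121292695-121292739, plus strand, CCAAT): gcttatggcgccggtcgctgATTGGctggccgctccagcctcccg
HMGCS1 (chr5:43313488-43313532, minus strand, CCAAT): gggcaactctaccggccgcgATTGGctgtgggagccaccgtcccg
INSIG1 (chr7:155297688-155297732, plus strand, CCAAT): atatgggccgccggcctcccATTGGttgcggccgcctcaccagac
A match describes letters in the window only, and no binding was measured. A missing match to 1 fixed motif does not show that a site is absent.

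The 6 libraries held 15678989 to 19704409 counts in PD-L1 dishes and 18797948 to 22270509 in Vector dishes, so that 3 counts correspond to 0.1347 to 0.1913 CPM (read counts scaled by library size and TMM factor). CD274 itself reached 1309, 1356 and 1234 CPM in PD-L1 dishes, against 1.57, 3.47 and 2.21 CPM in Vector dishes. These reads do not separate the construct from the endogenous gene. Across all genes tested, 1384 (8.75%) passed a Benjamini-Hochberg FDR of 0.05 in edgeR's quasi-likelihood test, 245 (1.55%) higher and 1139 (7.2%) lower in PD-L1 dishes. PD-L1 dishes 1 and 2 stood apart from PD-L1 dish 3. Their median log2 level against the Vector mean was 0.136 and 0.103 in the lowest quartile of genes by GC content. In the highest quartile it was -0.182 and -0.125. PD-L1 dish 3 had 0.014 in the lowest and 0.023 in the highest quartile. Vector dish 1 leaned the other way, with -0.066 in the lowest and 0.07 in the highest quartile. Vector dish 2 had 0.045 and -0.049, and Vector dish 3 had 0.021 and -0.021. When GC content and transcript length were modelled as an offset (the GC offset), the calls split into 959 higher and 1366 lower. Values with the GC offset and without PD-L1 dish 3 are therefore given below beside the calls and directions they change. Of 14 glial and glioma markers, 12 were tested and 7 were lower: GFAP, VIM, NES, SOX2, SOX9, EGFR and CD44. GLUL averaged 504 ± 14.5 CPM in PD-L1 dishes and 465 ± 10.1 CPM in Vector dishes (FDR 0.35). SLC1A3 and OLIG2 also had higher means in PD-L1 dishes, S100B and CHI3L1 lower ones, and none of these passed. The summed level of the 14 markers was 1080 to 1220 CPM in PD-L1 dishes and 1510 to 1670 CPM in Vector dishes. VIM averaged 241 and CD44 208 CPM in PD-L1 dishes, against 391 and 417 CPM in Vector dishes. AQP4 and SLC1A2 were under the filter. Of the markers tested, lower calls numbered 1 of 6 for neurons, 1 of 2 for microglia and macrophages, and 2 of 3 for endothelium. Higher calls numbered 0 in each of these lists. The neuron markers summed to 21.8 to 26.3 CPM in PD-L1 dishes and 27.2 to 28.2 CPM in Vector dishes. The sums were 1.17 to 2.14 and 2.59 to 3.27 CPM for microglia and macrophages, and 3.2 to 3.96 and 4.94 to 5.98 CPM for endothelium. The calls in these last lists therefore rest on low counts. Of the hepatocyte and adipocyte markers, which would mark other lipid-making cells, TTR and ADIPOQ had 0 reads, and the 6 genes summed to 0.75 to 1.42 CPM in PD-L1 dishes and 0.929 to 1.33 CPM in Vector dishes.

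Few of the lipid synthesis genes passed the test between the lines. Of the 31 genes, 0 passed the test as higher and 2 (6.45%) as lower in PD-L1 dishes. Beside 8.75% of all genes called in either direction and 7.2% called lower, the share of called members was near the background. The 2 were FADS2, the delta-6 desaturase of polyunsaturated fatty acids, and SREBF1, the gene of SREBP-1. At an unadjusted p under 0.05 there were 3 higher and 5 lower members. DESeq2 called 1 higher member, STARD4, and limma-voom called 0. The log2 fold changes, given throughout as PD-L1 minus Vector, were positive for 14 members and negative for 17, with a median of -0.00 beside 0.02 over all genes. With the GC offset the values of MVK, PMVK, MVD, FDPS, EBP, DHCR7, ACLY, FASN, SREBF2 and SCAP turned positive, and none of these passed. Without PD-L1 dish 3 the log2 fold changes of CYP51A1 (0.01, FDR 0.988), SREBF2 (0.03, FDR 0.822) and ACLY (0.00, FDR 0.985) turned positive. The summed level of the glial and glioma markers was lower in PD-L1 dishes, and its part in these values was not tested. In bulk RNA, fewer cells with a transcript and less of it per cell cannot be told apart. Of the 29 members that were not called, 24 had a 95% confidence interval that stayed within 0.5 log2 units of 0. That bound is wider than the called changes themselves, -0.47 for FADS2 and -0.37 for SREBF1. Among the 24, the intervals of LSS, SC5D and FASN excluded 0, so the bound does not show an absence of change.

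Expressed per kilobase of the longest coding transcript, levels ranged widely among the members. ACLY, which makes cytosolic acetyl-CoA from citrate, had 116.2 CPM per kilobase in PD-L1 dishes and 119.1 in Vector dishes. FASN, the fatty acid synthase, followed with 96.3 in PD-L1 dishes and 110.8 in Vector dishes. The next was FDFT1, the squalene synthase that commits isoprenoids to sterols, at 50.4 in PD-L1 dishes and 53.0 in Vector dishes, and then PMVK, the phosphomevalonate kinase, at 38.9 in PD-L1 dishes and 39.2 in Vector dishes. The exporters were the lowest, with ABCA1 at 0.402 in PD-L1 dishes and 0.571 in Vector dishes, and ABCG1 at 0.200 in PD-L1 dishes and 0.165 in Vector dishes. EBP and PMVK were neighbours in this order that did not differ beyond their spread, and the order of ACLY and FASN was the same in both lines.

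**Figure D1:**
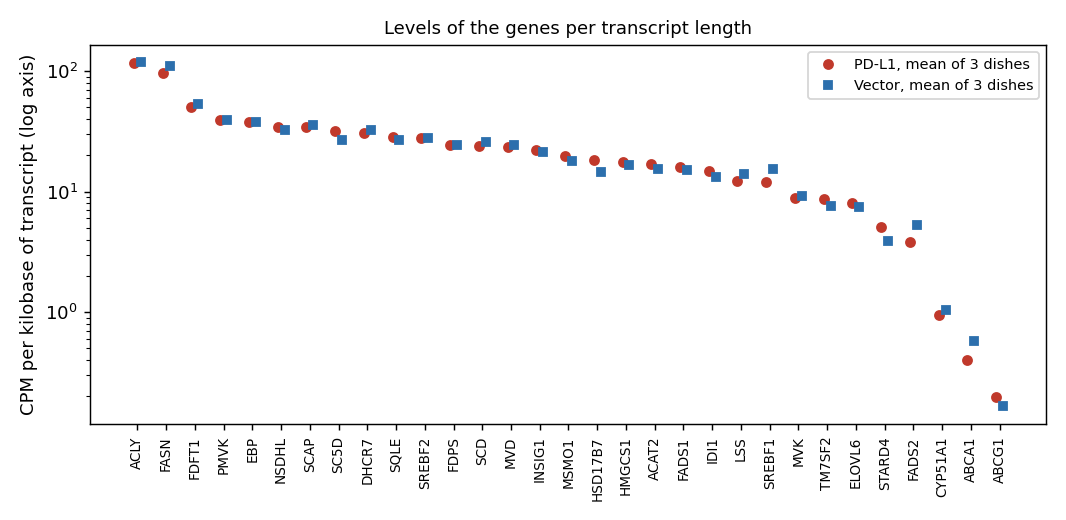
Mean level of each of the 31 genes in PD-L1 dishes (red circles, drawn left) and Vector dishes (blue squares), in CPM per kilobase of transcript on a log axis, n = 3 dishes each. ACLY and FASN lie highest and ABCA1 and ABCG1 lowest, and in each gene the 2 groups lie close together beside the range between genes.

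The summed level of the sterol synthesis enzymes did not separate the lines, and no enzyme passed the main test. Dishes did not overlap between groups for TM7SF2, HSD17B7 and SC5D, with PD-L1 above, and LSS, with PD-L1 below. Groups without overlap occurred in 27.6% of all genes tested. The 18 enzymes, ACAT2 through DHCR7, gave 0 calls in either direction by edgeR, DESeq2 and limma-voom, and 2 higher and 1 lower at an unadjusted p under 0.05. Their log2 fold changes were positive for 9 and negative for 9, from -0.18 to 0.33, with a median of 0.03. Summed over the 18 enzymes, the level was 985, 968 and 970 CPM in PD-L1 dishes 1 to 3, against 890, 1005 and 960 CPM in Vector dishes 1 to 3. The lowest and the highest sums both came from Vector dishes, and the PD-L1 sums lay between them. The means were 974 ± 9.69 CPM in PD-L1 dishes and 952 ± 57.5 CPM in Vector dishes (SD, n = 3 each). In 16 of the 18 enzymes the 95% interval of the fold change stayed within 0.5 log2 units of 0. The exceptions were CYP51A1 and HSD17B7, and among the 16 the intervals of LSS and SC5D excluded 0.

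The early steps, which turn acetyl-CoA into isoprenoid units, showed no call. ACAT2, the cytosolic thiolase of the pathway, averaged 54.3 ± 3.28 CPM in PD-L1 dishes and 49.0 ± 5.38 CPM in Vector dishes. HMGCS1, which condenses acetoacetyl-CoA with acetyl-CoA, averaged 62.2 ± 4.47 CPM in PD-L1 dishes and 58.4 ± 7.49 CPM in Vector dishes. The dishes of both genes overlapped between groups. The mevalonate kinase MVK had a log2 fold change of -0.03 (FDR 0.884), PMVK one of -0.01 (FDR 0.965) and the decarboxylase MVD one of -0.05 (FDR 0.805). IDI1, the isopentenyl diphosphate isomerase, measured 53.9, 49.4 and 47.7 CPM in PD-L1 dishes, against 36.7, 48.9 and 47.0 CPM in Vector dishes. Vector dish 1 was low and the other Vector dishes reached the PD-L1 range, and the difference of 0.19 ± 0.11 (log2, SE) had an FDR of 0.303. FDPS, the farnesyl diphosphate synthase, had a log2 fold change of -0.00 (FDR 0.990).

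From farnesyl diphosphate to lanosterol there was again no call, and LSS alone had dishes that did not overlap between groups. FDFT1 measured 136, 130 and 136 CPM in PD-L1 dishes, against 125, 155 and 143 CPM in Vector dishes. SQLE, the squalene epoxidase and a rate-controlling step, averaged 84.3 ± 6.31 CPM in PD-L1 dishes and 78.9 ± 5.82 CPM in Vector dishes, and the groups of both genes overlapped. LSS, which closes squalene epoxide to lanosterol, measured 57.6, 61.9 and 62.9 CPM in PD-L1 dishes, against 70.3, 66.7 and 69.0 CPM in Vector dishes. Every PD-L1 dish of LSS was below every Vector dish, but the difference of -0.18 ± 0.08 did not pass (FDR 0.175), and with the GC offset it was -0.03. LSS has a GC content of 58.3%.

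The late steps, which trim lanosterol to cholesterol, held the largest positive values among the sterol enzymes. HSD17B7, the 3-ketosteroid reductase of the demethylation complex, measured 21.0, 23.7 and 20.9 CPM in PD-L1 dishes, against 15.8, 19.0 and 17.5 CPM in Vector dishes. SC5D, the lathosterol desaturase, measured 78.6, 81.1 and 73.7 CPM in PD-L1 dishes, against 61.8, 69.9 and 65.1 CPM in Vector dishes. In both genes every PD-L1 dish was above every Vector dish. The log2 fold changes were 0.33 ± 0.10 for HSD17B7 (FDR 0.0678) and 0.25 ± 0.08 for SC5D (FDR 0.0721), which did not pass. Without PD-L1 dish 3 both passed as higher, at 0.36 (FDR 0.0188) for HSD17B7 and 0.28 (FDR 0.00762) for SC5D. With the GC offset the values were 0.28 (FDR 0.0537) for HSD17B7 and 0.14 (FDR 0.114) for SC5D. Reads on 2 pseudogene copies of HSD17B7 came to 5.3% of its own, so some of its reads may be split between copies.

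TM7SF2, a sterol reductase that shares exons on the same strand with VPS51, averaged 14.9 ± 1.05 CPM in PD-L1 dishes and 13.0 ± 0.79 CPM in Vector dishes, also without overlap between dishes (log2 fold change 0.19, FDR 0.302). The value was 0.31 (FDR 0.0785) with the GC offset, and with the GC offset and without PD-L1 dish 3 it passed as higher, at 0.43 (FDR 0.00361). The demethylation enzymes MSMO1 and NSDHL had log2 fold changes of 0.12 (FDR 0.509) and 0.07 (FDR 0.650). EBP, the sterol isomerase, averaged 66.6 ± 2.05 CPM in PD-L1 dishes and 66.6 ± 2.56 CPM in Vector dishes and had the smallest log2 fold change of the members. DHCR7, which reduces 7-dehydrocholesterol to cholesterol, averaged 81.4 ± 2.21 CPM in PD-L1 dishes and 86.6 ± 4.39 CPM in Vector dishes (log2 fold change -0.09, FDR 0.501). CYP51A1, the lanosterol demethylase, had the widest relative range within a line of any member, 1.73 times among its PD-L1 dishes, with 4.15, 2.40 and 2.62 CPM in PD-L1 dishes, against 3.22, 2.98 and 3.77 CPM in Vector dishes. PD-L1 dish 1 was the highest and PD-L1 dish 2 the lowest of all 6 dishes. CYP51A1 shares exons on the same strand with 2 other annotated genes and has 3 pseudogene copies, so its level is uncertain.

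Within a line, many sterol enzymes were lowest or highest in the same dish. Vector dish 1 was the lowest Vector dish for 12 of the 18 enzymes (66.7%), beside 35.9% of all genes tested. Vector dish 2 was the highest for 12 of the 18, beside 34.7% of all genes. PD-L1 dish 3 was the lowest PD-L1 dish for 9 of the 18, beside 39.1% of all genes. The median coefficient of variation of the sterol enzymes was 7.11% in PD-L1 dishes and 6.79% in Vector dishes, beside 10.0% and 7.85% over all genes.

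**Figure D2:**
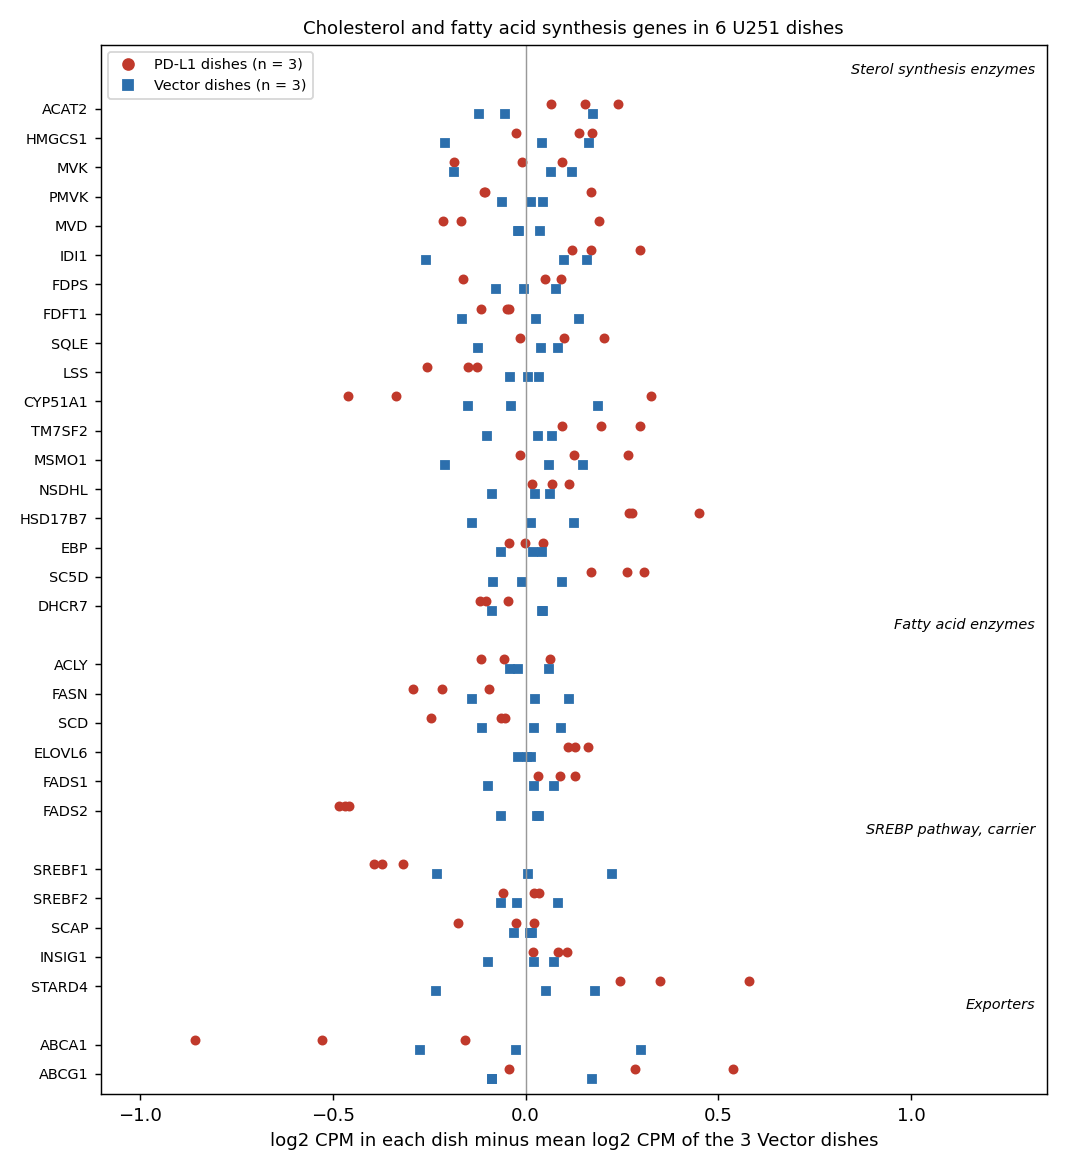
Level of each gene in each dish as log2 CPM minus the mean log2 CPM of the 3 Vector dishes, with PD-L1 dishes as red circles above and Vector dishes as blue squares below in each row, grouped by role. The groups separate for FADS2 and SREBF1 on the left and for STARD4, HSD17B7 and SC5D on the right, and most other rows overlap.

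Of the 6 fatty acid enzymes tested, 1 passed as lower and 0 as higher, and the log2 fold changes were positive for 2 and negative for 4. FADS2 measured 13.9, 13.8 and 13.7 CPM in PD-L1 dishes, against 19.5, 19.6 and 18.2 CPM in Vector dishes. The PD-L1 dishes lay within 1.02 times of each other and all below the lowest Vector dish. FADS2 fell by 0.47 ± 0.10 on the log2 scale, which is 1.39-fold lower (FDR 0.00857, edgeR quasi-likelihood test). The 95% interval ran from -0.68 to -0.26. FADS2 is a GC-rich gene at 60.7%. With the GC offset the decrease was smaller, -0.32 (FDR 0.0259), and without PD-L1 dish 3 it was -0.46 (FDR 0.00295). Both changes together gave the smallest decrease, -0.28 (FDR 0.0467). With the GC offset and the dish number fitted as a block, FADS2 did not pass (-0.32, FDR 0.0607). Exons of FADS2 overlap FEN1 on the same strand and FADS1 on the other, and an unstranded kit leaves reads there without a sure gene.

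FADS1, the delta-5 desaturase that acts after FADS2 on the same fatty acids, measured 73.1, 75.2 and 70.2 CPM in PD-L1 dishes, against 64.3, 69.9 and 72.4 CPM in Vector dishes. The groups overlapped, and the log2 fold change of 0.08 ± 0.08 had an FDR of 0.562. The difference between the 2 desaturases was not tested. ELOVL6, which elongates palmitate, measured 51.4, 53.3 and 52.0 CPM in PD-L1 dishes, against 48.1, 47.8 and 47.0 CPM in Vector dishes. Its dishes did not overlap, but the change was 0.13 ± 0.07 with an FDR of 0.305. Among all genes tested, 27.6% had groups without overlap, and 8 of the 31 members did, 5 with PD-L1 above and 3 below, while 8.75% of all genes passed the test.

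The abundant enzymes at the start of the pathway showed no call. FASN measured 773, 887 and 814 CPM in PD-L1 dishes, against 964, 860 and 1024 CPM in Vector dishes. PD-L1 dish 2 lay above Vector dish 2, so the groups overlapped. The log2 fold change was -0.20 ± 0.09 (FDR 0.182), and with the GC offset it turned to 0.04 (FDR 0.761). FASN has a GC content of 65.3%. ACLY measured 497, 540 and 476 CPM in PD-L1 dishes, against 502, 509 and 538 CPM in Vector dishes (log2 fold change -0.04, FDR 0.827). SCD, which makes oleate from stearate, measured 133, 134 and 117 CPM in PD-L1 dishes, against 141, 128 and 148 CPM in Vector dishes (log2 fold change -0.12, FDR 0.406). PD-L1 dish 2 was the highest PD-L1 dish for 5 of the 6 fatty acid enzymes, beside 31.0% of all genes tested.

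**Figure D3:**
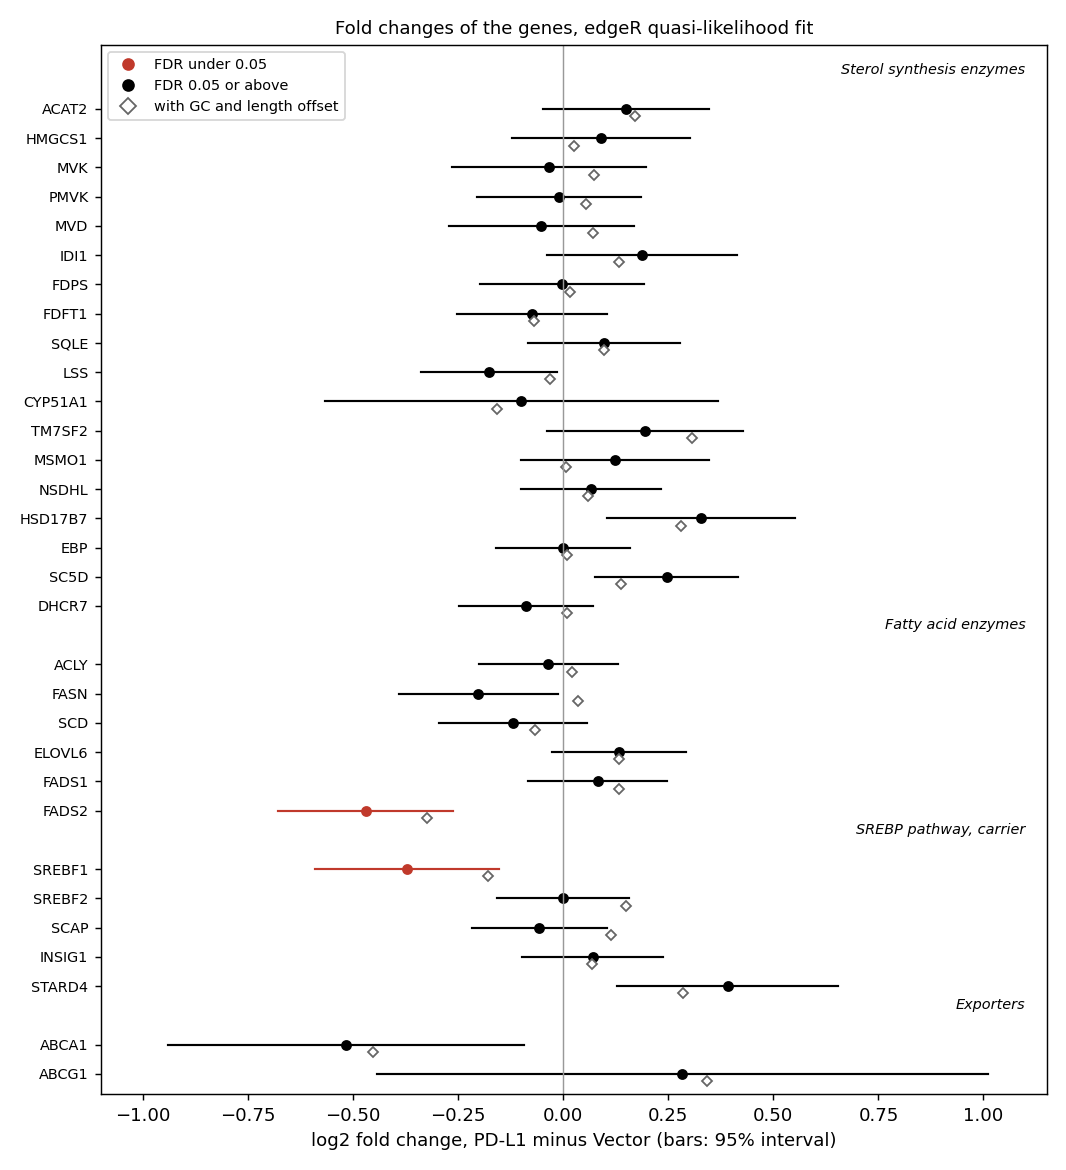
Log2 fold change of each gene, PD-L1 minus Vector, with its 95% interval from the edgeR fit (n = 3 dishes each), in red where the FDR is under 0.05, and the value with the GC and length offset as an open diamond. FADS2 at -0.47 and SREBF1 at -0.37 are red, and the diamonds of FASN and SREBF1 lie to the right of their points.

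Set side by side, sterol and fatty acid enzymes differed little, and the dishes of the lines overlapped in this contrast. The median log2 fold change was 0.03 over 18 sterol enzymes and -0.08 over 6 fatty acid enzymes, a difference of 0.11. By dish, the sterol median minus the fatty acid median was 0.185, 0.00103 and 0.234 in PD-L1 dishes 1 to 3, against -0.104, 0.0783 and -0.0418 in Vector dishes 1 to 3. PD-L1 dishes 1 and 3 lay above all Vector dishes, but PD-L1 dish 2 lay within their range. The standard deviation of this difference between dishes of a group reached 0.123. The summed level of sterol enzymes over that of fatty acid enzymes was 0.639, 0.568 and 0.628 in PD-L1 dishes, against 0.512, 0.615 and 0.519 in Vector dishes, and again PD-L1 dish 2 lay below Vector dish 2. The sum over the fatty acid enzymes was 1596 ± 92.8 CPM in PD-L1 dishes and 1741 ± 107 CPM in Vector dishes (SD, n = 3 each). With the GC offset the fatty acid median turned positive, to 0.03, and the difference was 0.03. No test was applied to these medians, because the genes were listed with results known.

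**Figure D4:**
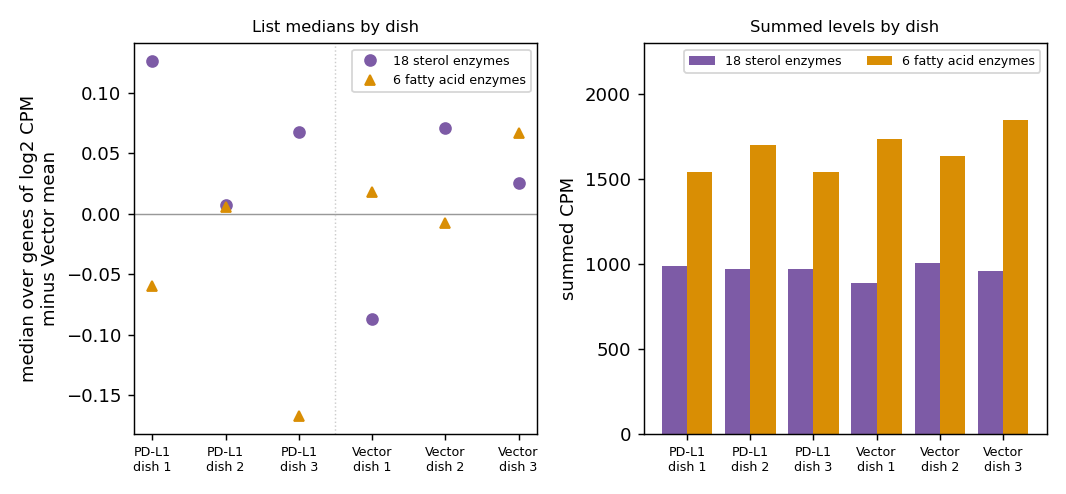
Left, median over 18 sterol enzymes (circles) and 6 fatty acid enzymes (triangles) of log2 CPM minus the Vector mean in each dish; right, their summed CPM in each dish, PD-L1 dishes left of Vector dishes. The sterol median exceeds the fatty acid median by 0.185 and 0.234 in PD-L1 dishes 1 and 3 and by 0.00103 in PD-L1 dish 2, which lies within the Vector range of -0.104 to 0.0783.

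Of the genes that control the pathway, SREBF1 was the called one. It measured 49.9, 50.6 and 52.6 CPM in PD-L1 dishes, against 76.5, 55.8 and 65.8 CPM in Vector dishes. The PD-L1 dishes were close together and below all Vector dishes, which spread over 1.37 times. SREBF1 fell by 0.37 ± 0.10 on the log2 scale, 1.29-fold lower (FDR 0.0375). This call rested on single dishes, with an FDR of 0.211 (log2 fold change -0.25) without Vector dish 1, 0.0803 without Vector dish 3, 0.120 without PD-L1 dish 1 and 0.107 without PD-L1 dish 2. With the GC offset the value was -0.18 (FDR 0.0897). Without PD-L1 dish 3 it was -0.40 (FDR 0.0176). SREBF1 has a GC content of 64.7%, below only MVD at 65.6% and FASN at 65.3% among the members. SREBF1 shares exons with RAI1 on the other strand. Gene counts do not separate its 2 SREBP-1 isoforms.

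SREBF2, the gene of SREBP-2, measured 152, 153 and 144 CPM in PD-L1 dishes, against 147, 143 and 159 CPM in Vector dishes, and the log2 fold change was -0.00 ± 0.07 (FDR 0.998). With the offset and without PD-L1 dish 3 together it passed as higher, at 0.19 (FDR 0.018). SCAP, the escort and sterol sensor of SREBPs, averaged 149 ± 10.5 CPM in PD-L1 dishes and 155 ± 2.66 CPM in Vector dishes. INSIG1, the retention protein and itself an SREBP target, averaged 66.8 ± 2.11 CPM in PD-L1 dishes and 63.7 ± 3.82 CPM in Vector dishes. Neither passed, with FDRs of 0.683 for SCAP and 0.629 for INSIG1, and their dishes overlapped between groups.

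STARD4, a carrier that moves cholesterol between membranes and is an SREBP-2 target, had the largest positive value of the members. It measured 26.5, 22.6 and 21.0 CPM in PD-L1 dishes, against 15.1, 18.4 and 20.1 CPM in Vector dishes. Every PD-L1 dish was above every Vector dish, though PD-L1 dish 3 and Vector dish 3 lay close. The log2 fold change of 0.39 ± 0.12 did not pass in edgeR (FDR 0.0638). It passed in DESeq2 (FDR 0.0466), with the offset at 0.29 (FDR 0.0441) and without PD-L1 dish 3 at 0.46 (FDR 0.00601). STARD4 is the member with the lowest GC content, 34.2%, and it overlaps STARD4-AS1 on the other strand.

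The exporters were scarce. ABCA1, which loads cholesterol onto lipid-poor apolipoproteins and is an LXR target, measured 4.10, 5.30 and 3.27 CPM in PD-L1 dishes, against 7.27, 4.89 and 5.81 CPM in Vector dishes. PD-L1 dish 2 lay above Vector dish 2, so the groups overlapped, and the log2 fold change of -0.52 ± 0.20 had an FDR of 0.127. Without the low-count filter it passed as lower, at -0.54 (FDR 0.0394). In the main fit its interval ran from -0.94 to -0.09 and excluded 0, although the FDR did not pass. ABCG1, which exports sterols to mature HDL particles, measured 0.830, 0.555 and 0.696 CPM in PD-L1 dishes, against 0.644, 0.538 and 0.538 CPM in Vector dishes. The interval of its log2 fold change, from -0.44 to 1.01, was the widest of the members. It included 0, so neither a direction nor an absence of change can be read from it.

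**Figure D5:**
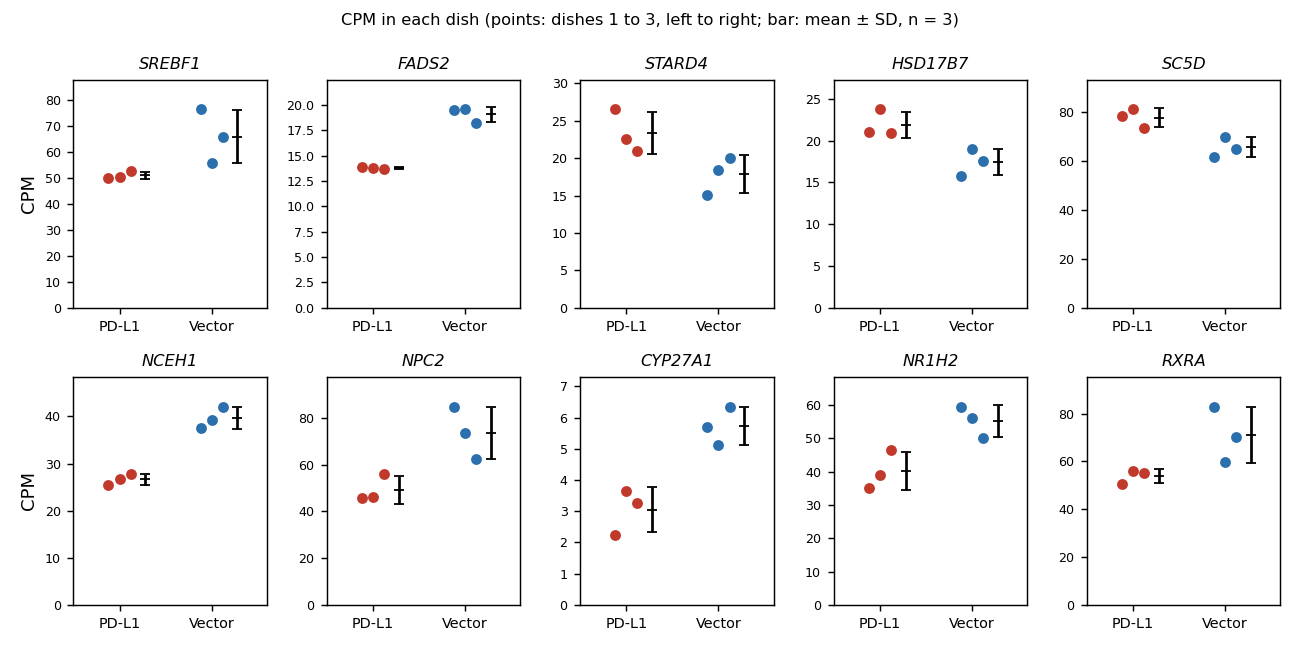
CPM in each of 3 PD-L1 dishes (red, left) and 3 Vector dishes (blue, right) for 5 synthesis and SREBP pathway genes and 5 genes of sterol handling, with mean ± SD beside the points. SREBF1, FADS2 and the 5 genes of the lower row lie lower in PD-L1 dishes, and STARD4, HSD17B7 and SC5D lie higher without passing the test.

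Genes around the pathway were taken from lists by role, drawn up with earlier results of these data known. The shares of these lists therefore describe them and were not tested against all genes. Among 25 other genes of sterol uptake, storage and efflux, 24 were tested, 0 passed as higher and 5 (20.8%) as lower, beside 7.2% of all genes. Their median log2 fold change was -0.10, with 17 negative and 7 positive. NCEH1, which hydrolyses cholesterol esters, measured 25.4, 26.8 and 27.7 CPM in PD-L1 dishes, against 37.6, 39.2 and 42.1 CPM in Vector dishes, and fell by 0.57 ± 0.09 on the log2 scale (FDR 0.00114). NPC2, which hands cholesterol out of the lysosome, measured 45.5, 46.2 and 56.2 CPM in PD-L1 dishes, against 84.8, 73.6 and 62.4 CPM in Vector dishes, and fell by 0.58 ± 0.11 (FDR 0.00618). Neither gene overlapped between groups, and both passed in all 16 alternative fits.

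CYP27A1, which makes 27-hydroxycholesterol, measured 2.24, 3.64 and 3.27 CPM in PD-L1 dishes, against 5.71, 5.13 and 6.35 CPM in Vector dishes, and fell by 0.92 ± 0.19 (FDR 0.0081). NR1H2, the LXR-beta receptor, measured 35.1, 39.0 and 46.5 CPM in PD-L1 dishes, against 59.5, 55.9 and 50.2 CPM in Vector dishes, and fell by 0.46 ± 0.11 (FDR 0.0155). The fifth, RXRA, the partner receptor of LXR, averaged 53.9 ± 2.88 CPM in PD-L1 dishes and 71.0 ± 11.7 CPM in Vector dishes (log2 fold change -0.40, FDR 0.0335) and was named after its values were seen. NR1H3, the LXR-alpha receptor, averaged 19.4 ± 2.90 CPM in PD-L1 dishes and 17.6 ± 0.69 CPM in Vector dishes (FDR 0.479), likewise named after its values were seen. Dropping any of dishes 1 and 2 of either line ended the call of NR1H2, with FDRs from 0.0545 to 0.1. The same held for RXRA with dishes 1 and 2 of the PD-L1 line and dishes 1 and 3 of the Vector line, with FDRs from 0.0689 to 0.192. RXRA was at -0.27 (FDR 0.0589) with the GC offset, which left 4 lower genes in the list. The count of 5 became 3 if PD-L1 dish 1, PD-L1 dish 2 or Vector dish 1 was dropped. The 7 lower glial and glioma markers given above differed in the same direction, while GLUL, SLC1A3 and OLIG2 did not. Their part in the result was not tested.

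The other lists gave few calls. Of 20 isoprenoid and SREBP processing genes, 0 passed in edgeR, DESeq2 or limma-voom, with 3 higher and 3 lower at an unadjusted p under 0.05 and a median log2 fold change of -0.00. The most abundant were LBR, a sterol reductase of the nuclear envelope, with 285 ± 27.5 CPM in PD-L1 dishes and 267 ± 19.9 CPM in Vector dishes, and MBTPS1, the site-1 protease of SREBPs, with 172 ± 7.58 CPM in PD-L1 dishes and 172 ± 4.94 CPM in Vector dishes. Of 33 other genes of fatty acid synthesis and activation, 30 were tested and 0 passed in edgeR or limma-voom, 1 passed as higher in DESeq2, and 2 were higher and 3 lower at an unadjusted p under 0.05. HACD3, an elongation dehydratase, averaged 301 ± 4.01 CPM in PD-L1 dishes and 259 ± 7.66 CPM in Vector dishes (FDR 0.0673), and SLC25A1, the mitochondrial citrate carrier, 218 ± 22.5 CPM in PD-L1 dishes and 216 ± 3.61 CPM in Vector dishes (FDR 0.944). Of 20 genes of fatty acid oxidation, 0 passed as higher and 1 as lower (5%), the nuclear receptor PPARD. The log2 fold changes of this list were positive for 14 and negative for 6, with a median of 0.08 beside 0.02 over all genes. At an unadjusted p under 0.05, 3 were higher and 1 lower. PPARD measured 33.5, 38.0 and 36.4 CPM in PD-L1 dishes, against 48.6, 44.6 and 42.4 CPM in Vector dishes (log2 fold change -0.33 ± 0.09, FDR 0.03). PPARD no longer passed when any of dishes 1 and 2 of either line was left out, with FDRs from 0.0562 to 0.161. Its value was -0.20 (FDR 0.0516) with the GC offset.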

How the data were processed

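RNA-seq counts of 3 PD-L1 and 3 Vector dishes of U251 were analysed. Per the labels' protocols, each library started from 3 µg of total RNA, was selected for poly-A and was made with the unstranded NEBNext Ultra kit. Per the submitters' processing notes, CASAVA 1.8, STAR 2.5.1b, HTSeq 0.6.0 and the genome build hg19 were used. The annotation and the counting options were not given in the sources used here. For each dish the authors deposited raw counts of Ensembl genes, and these were used. Their normalized table was not used. All columns of the table belong to a dish of the study.

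Counts were tested in R 4.3.3 with edgeR 4.0.16 (filterByExpr, TMM, robust quasi-likelihood F test, no covariates). P-values were adjusted by Benjamini-Hochberg over all 15818 genes, and an FDR under 0.05 counted as changed. Standard errors (±, beside a log2 fold change) came from the fold change and its F statistic. CPM values are TMM-scaled, and ± beside a CPM is the SD of 3 dishes. A gene name table gave symbols to 51996 identifiers and GENCODE 29 to 342. GENCODE 29, on another build than the files, gave transcript length, GC content and overlaps only. Promoters came from RefSeq. Alternatives used DESeq2 1.42.0 and limma 3.58.1, other scalings and filters, each dish left out, the dish number as a block, an FDR of 0.01, and an offset for GC content and length (natural splines, 5 degrees of freedom per dish). The main edgeR fit, edgeR with the block, edgeR with the offset, DESeq2 and limma-voom were run on simulated counts. The other alternatives were not, and the simulated counts held no GC bias or deviating dish.

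The members, the other gene lists, the markers and the motifs were chosen with earlier results of these data known. All members are named. Of each other list the text names up to 4 genes with the smallest FDR under 0.05 or, where there is none, the 2 most abundant. With 3 dishes a group, an exact permutation test cannot go below 0.1 and was not used for calls. Counting limits cover counting error only.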

Additional observations from a re-analysis of the deposited data

How the results depend on the processing

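PD-L1 dishes had 245 higher and 1139 lower genes. The higher count was 379 with upper-quartile scaling, 959 with the GC and length offset, 449 with the offset and the dish number as a block, 1668 with the offset and without PD-L1 dish 3, and 22 at an FDR of 0.01. The lower count was 1927 with the offset and without PD-L1 dish 3 and 508 at an FDR of 0.01. Leaving out 1 dish gave 35 (without Vector dish 1) to 1271 (without PD-L1 dish 3) higher and 510 to 2241 lower genes, from the same dishes. The share of lower genes among calls was 82.3%, against 72.8% with upper-quartile scaling, 58.8% with the offset and 53.6% with the offset and without PD-L1 dish 3. It was 63.8% without PD-L1 dish 3 and 88.7% to 93.6% without any other single dish. Of the members, 0 were higher, against 3 with upper-quartile scaling (STARD4, HSD17B7, SC5D), 1 (STARD4) in DESeq2, without a low-count filter, with the block and with the offset, 5 with the offset and without PD-L1 dish 3, and 0 to 3 when 1 dish was left out. The 2 lower members became 1 with a minimum of 5 CPM, with the offset, with the offset and without PD-L1 dish 3, and at an FDR of 0.01, 0 with the offset and the block, and 1 to 2 when 1 dish was left out. Without a low-count filter they were 3, with ABCA1 added. The fatty acid median was 0.0284 with the offset, 0.0292 with the offset and the block, and 0.0602 with the offset and without PD-L1 dish 3. It ran from -0.116 to -0.0294 when 1 dish was left out. SREBF2 turned to 0.190 (FDR 0.018) with the offset and without PD-L1 dish 3. The sterol median stayed positive in all 16 alternatives (0.0108 to 0.0734), as did the sterol minus fatty acid difference (0.00838 to 0.18). FADS2 was called in 15 of 16 alternatives, the exception being the offset with the block (-0.322, FDR 0.0607), and SREBF1 in 8. Apart from the offset, which alters values by construction, the cause of these shifts was not tested. Deviations from the group mean correlated at -0.274, -0.072 and -0.254 between same-numbered dishes, so no shared deviation by dish number was seen. These correlations cannot show whether same-numbered dishes were handled together. With the dish number as a replicate block, 238 genes were higher and 1209 lower, and PPARD had an FDR of 0.0623 (0.113 with the offset added). RXRA had an FDR of 0.0796 with the offset and the block. Low counts limit CYP51A1, ABCA1 and ABCG1.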
